A study of Mus musculus with 10 samples.

Results

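The fetal mouse ovary near birth (embryonic stage E18.5) was compared with the fetal ovary at E14.5, over all transcripts that the arrays could measure. The comparison rested on 4 of the 10 arrays of the series, 2 titled E18.5 and 2 titled E14.5, and on the 45037 probe sets of each array that were not controls. The other 6 arrays were 2 each of ovaries at E11.5, E12.5 and E16.5. All were whole embryonic ovaries from independent preparations, hybridised in duplicate, with no treatment and no engineered allele in the labels. Strain and the number of embryos in a preparation were not given in the sources used here. Total RNA had been extracted with Trizol and labelled with biotin, 1 colour per array.

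In the fetal mouse ovary germ cells stop dividing, enter meiosis and pass through the stages of prophase in which homologous chromosomes pair, recombine and are held together by the synaptonemal complex. Toward birth they reach the end of prophase, switch on the transcription factors and stored products of the oocyte, and lie in nests that pregranulosa cells will part into primordial follicles. E14.5 is early in meiotic prophase and E18.5 is shortly before follicles form. The span thus sets the germ cell's early meiotic programme against the start of the oocyte's.

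Values are scaled signals, linear intensities of each array brought to a common 75th percentile of 142, given in the order of replicates 1 and 2, and changes are differences of log2(scaled signal + 16), E18.5 minus E14.5, ± SE. The added 16 makes the change of a dim gene smaller than its ratio. Adjusted p-values are two-sided, from limma, with Benjamini-Hochberg adjustment across every probe set that passed a filter on low signals, and a call is an adjusted p under 0.05. A gene was read by its brightest probe set. Control probe sets with no target in the sample had a 95th percentile of 23.8 and 25.4 on the E18.5 arrays, against 27.5 and 27.3 on the E14.5 arrays. Where both arrays of a stage lay under that level, a gene's ratio is given as "at least" the mean of the brighter stage over that level. With 2 arrays a stage, the precision of each value is limited.

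Ratios that follow RNA quality differed between the stages without overlap, as given here. Log2 signals, compared over probe sets that are no independent replicates, correlated at r = 0.945 between the E18.5 arrays and at 0.958 between the E14.5 arrays. The 3′ to 5′ ratio of the Actb control, a sign of RNA length, was 1.60 and 1.66 at E18.5, against 1.91 and 2.22 at E14.5. That of Gapdh was 1.28 and 1.06 at E18.5, against 0.826 and 0.796 at E14.5. Per the settings files the E18.5 arrays had a hybridisation date of their own and the E14.5 arrays shared one with E16.5. Hybridisation date and stage thus cannot be told apart. The same files give a module for each array, called the wash module below. Both E12.5 arrays differed from those of other stages, with a correlation of at most 0.437 to the arrays of the other stages for replicate 2 and an Actb ratio of 10.6 for replicate 1, and both were left out of the fit. In bulk tissue, fewer cells of a type and less RNA per cell cannot be told apart.

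Between E18.5 and E14.5 a large part of the measured transcripts changed. Of 13104 genes tested, 1971 (15.0%) passed the test, 859 (6.56%) of them higher and 1112 (8.49%) lower at E18.5. Over probe sets the count was 3548 of 26890 (13.2%), with 1565 (5.82%) higher and 1983 (7.37%) lower. The median change of all genes was -0.01. Counts of list members below are to be read beside the shares of all genes, 6.56% higher and 8.49% lower. Of the genes that rose, 495 did so by more than 1 on the log2 scale and 13 by more than 3, against 589 and 6 of those that fell. Both E14.5 arrays of 76 risers lay under the controls with no target, and both E18.5 arrays of 43 genes that fell. With all 10 arrays in the fit only 8 genes passed (10 probe sets, and 2170 at an unadjusted p under 0.05), and the spread between the 2 E12.5 arrays decides that count. With E12.5 replicate 1 kept alone, which adds nothing to the estimate of spread, 1962 genes passed. The 8 genes were Bzw2, Lhx8, Tdrd9, Ccdc201, Nobox, Sohlh1, Nlrp5 and Stra8. Leaving out 1 array of the comparison left 400 genes without E18.5 replicate 1, 666 without E18.5 replicate 2, 794 without E14.5 replicate 1 and 699 without E14.5 replicate 2. Below, these are called the 4 left-out fits, and a call that was lost in any of them is named as such. Some genes were not tested in all 4, and a fit that did not test a gene is not counted as a loss.

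**Figure D1:**
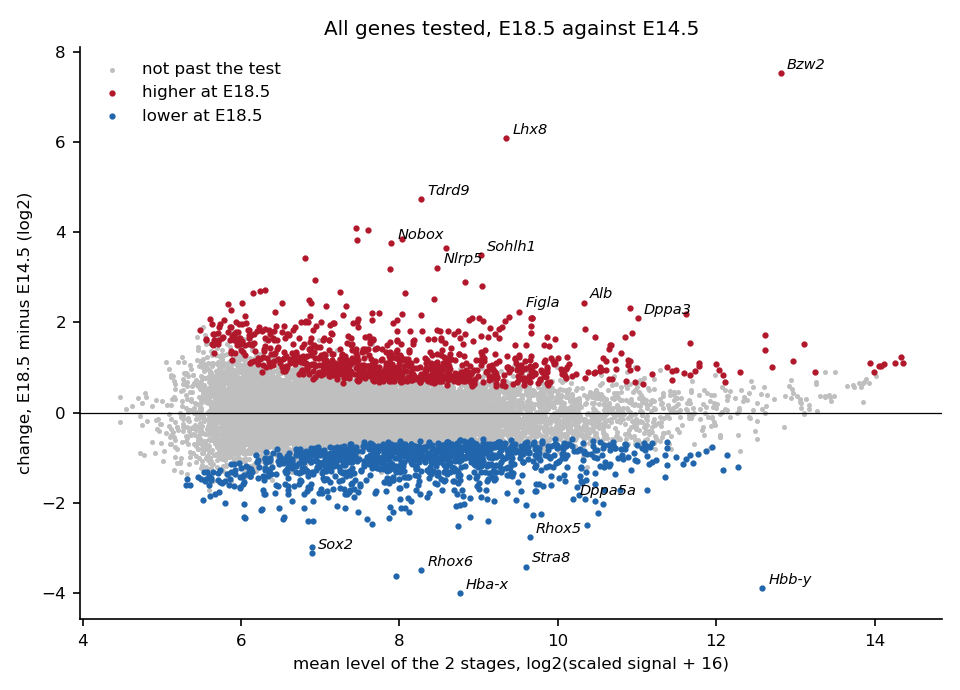
Change between E18.5 and E14.5 (vertical axis, log2, E18.5 minus E14.5) against the mean level of a gene at both stages (horizontal axis, log2 of scaled signal + 16) for 13104 genes. The 859 genes past the test and higher at E18.5 are red, the 1112 lower are blue and the rest are grey. With 16 added, Bzw2 at 7.54 and Lhx8 at 6.10 stand above all others and Hba-x at -4.01 is the lowest, Lhx8 having E14.5 signals under the controls with no target.

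Most of the oocyte transcription factors tested rose. Of the 9 listed factors tested, out of 11 on the list, 6 rose and 0 fell (5 or 6 higher in the left-out fits), with a median change of 1.61. Lhx8, a LIM homeobox factor needed for the oocyte to form a follicle, had scaled signals of 1310 and 1226 at E18.5, against 2.31 and 3.24 at E14.5. Both E14.5 arrays were under the controls with no target, so Lhx8 rose at least 46.3-fold (adjusted p = 8.80e-08). Nobox, a homeobox factor of the same step, had 417 and 438 at E18.5, against 25.5 and 9.50 at E14.5, a rise of at least 15.6-fold (adjusted p = 1.46e-04). Of the 9 factors, Nobox alone passed the filter only through the E18.5 arrays, and the fits without an E18.5 array did not test it. With no filter 6 of 10 factors rose, with a median of 1.41. At E14.5 neither homeobox gene was above the controls on either array, while at E18.5 both were among the brighter genes.

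The basic helix-loop-helix factors were already measurable at the earlier stage. Sohlh1 had 938 and 945 at E18.5, against 79.4 and 60.1 at E14.5, a change of 3.49 ± 0.21 (adjusted p = 1.43e-06). Figla, which drives the zona pellucida genes, had 1138 and 1237 at E18.5, against 278 and 203 at E14.5, a change of 2.24 ± 0.23 (adjusted p = 1.61e-04). For both genes both E18.5 arrays lay above both E14.5 arrays, and each E14.5 array lay above the controls with no target. Such a lack of overlap was shared by 63.0% of all genes tested. All 859 risers and all 1112 genes that fell had it, so it adds nothing to a call. Stat3 rose by 1.61 ± 0.24. Foxo3, which keeps primordial oocytes dormant and is named here after its values were seen, rose by 1.21 ± 0.21. Sohlh2, the partner of Sohlh1, averaged 329 ± 24.6 at E18.5 and 254 ± 16.3 at E14.5 (SD, n = 2 each), and its change of 0.35 ± 0.21 did not pass. Taf4b, a germ cell subunit of the general transcription machinery, was at 448 and 513 at E18.5 and at 713 and 404 at E14.5, with overlapping arrays.

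The promoters of the 4 factors that rose most are printed here because these factors are known to act on one another's genes and on oocyte genes, and that of Stra8 because it fell most among the meiotic genes described below. Each is the RefSeq sequence in GRCm38.p6 from 250 bases before to 50 after the gene's start. Capitals mark matches on either strand to the E-box CANNTG, bound by basic helix-loop-helix factors, to the homeobox core TAATTG or TAATTA, and to the nuclear receptor half-site AGGTCA or GGGTCA.
Lhx8 (chr3:154330511-154330810, minus strand): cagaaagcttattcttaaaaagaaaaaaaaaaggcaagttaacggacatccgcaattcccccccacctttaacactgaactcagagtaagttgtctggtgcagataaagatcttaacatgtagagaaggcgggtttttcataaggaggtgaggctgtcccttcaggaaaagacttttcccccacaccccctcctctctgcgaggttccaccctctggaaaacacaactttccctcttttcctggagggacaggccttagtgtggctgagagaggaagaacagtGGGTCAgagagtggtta
Nobox (chr6:43309505-43309804, minus strand): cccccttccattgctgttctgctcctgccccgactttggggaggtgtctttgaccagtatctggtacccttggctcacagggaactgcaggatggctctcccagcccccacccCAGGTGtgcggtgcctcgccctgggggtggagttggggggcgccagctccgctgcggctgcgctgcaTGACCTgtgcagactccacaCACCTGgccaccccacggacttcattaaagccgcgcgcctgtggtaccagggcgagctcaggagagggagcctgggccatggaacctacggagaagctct
Sohlh1 (chr2:25847199-25847498, minus strand): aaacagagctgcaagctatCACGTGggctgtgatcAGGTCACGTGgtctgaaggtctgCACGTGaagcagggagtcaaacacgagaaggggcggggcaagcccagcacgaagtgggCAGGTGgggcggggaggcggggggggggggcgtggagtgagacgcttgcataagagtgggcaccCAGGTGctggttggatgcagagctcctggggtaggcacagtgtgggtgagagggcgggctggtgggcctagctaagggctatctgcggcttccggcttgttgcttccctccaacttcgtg
Figla (chr6:86016941-86017240, plus strand): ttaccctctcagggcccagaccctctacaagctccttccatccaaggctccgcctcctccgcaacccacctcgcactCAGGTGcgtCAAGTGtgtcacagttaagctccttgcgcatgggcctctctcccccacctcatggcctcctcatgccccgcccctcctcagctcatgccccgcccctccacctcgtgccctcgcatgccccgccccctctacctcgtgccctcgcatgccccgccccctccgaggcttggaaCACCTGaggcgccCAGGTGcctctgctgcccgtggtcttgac
Stra8 (chr6:34920698-34920997, plus strand): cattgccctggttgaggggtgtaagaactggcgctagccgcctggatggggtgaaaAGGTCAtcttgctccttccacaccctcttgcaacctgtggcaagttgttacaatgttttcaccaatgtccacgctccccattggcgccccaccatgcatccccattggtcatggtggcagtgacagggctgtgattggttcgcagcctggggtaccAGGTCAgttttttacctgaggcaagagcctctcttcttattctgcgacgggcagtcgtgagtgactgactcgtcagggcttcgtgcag
The Sohlh1 window held 5 E-boxes, that of Figla 4 and that of Nobox 2, while those of Lhx8 and Stra8 held none. In the Sohlh1 window 1 E-box shares letters with a half-site. E-boxes are common letters, held by 72.3% of 32851 mouse promoter windows of the same length, the homeobox core by 12.4% and the half-site by 27.5%. The homeobox core was in none of the 5 windows printed. Among the 15 oocyte products that rose and had a promoter entry, 14 held an E-box, 2 the homeobox core and 5 a half-site. These matches describe the letters only.

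Products stored by the oocyte, or used by it in the follicle, rose in number. Of 26 members tested out of 45 on the list, 17 rose and 0 fell, with a median change of 1.22, and 8 to 13 rose in the left-out fits. Of the 26, 7 passed the filter only through the E18.5 arrays, 4 of them risers, and with no filter 16 of 39 rose, with a median of 0.86, a lower share than among the 26. Among the largest rises were those of some genes of the subcortical maternal complex and its relatives, proteins that the early embryo inherits from the egg. Nlrp5 (Mater) had 604 and 653 at E18.5, against 41.8 and 66.3 at E14.5, a change of 3.22 ± 0.27 (adjusted p = 2.73e-05). Nlrp4f, of the same gene family, had 378 and 571 at E18.5, against 11.9 and 23.5 at E14.5, a rise of at least 17.0-fold (adjusted p = 1.68e-04). Padi6, an enzyme of the oocyte's cytoplasmic lattices, rose by 2.36 ± 0.35. None of the E14.5 arrays of these genes reached 70, and Nlrp4f was under the controls there. Nlrp4f was tested in only 2 of the 4 left-out fits. Ooep, also of the subcortical maternal complex, did not pass, with a change of 0.54 on the values as deposited.

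Other members reached high levels or stayed low. Dppa3 (Stella), a maternal protein that guards DNA methylation in the zygote, was the brightest riser of the list, with 3417 and 3223 at E18.5, against 820 and 718 at E14.5, a change of 2.09 ± 0.23. Kit, the receptor for the growth factor of pregranulosa cells, had 415 and 413 at E18.5, against 108 and 151 at E14.5, a change of 1.58 ± 0.25, and a second probe set rose by 2.22 ± 0.25. Tcl1 rose by 2.20 ± 0.31. The coat genes of the egg were near the limit of the arrays. Zp2 had 86.8 and 97.5 at E18.5, against 7.14 and 9.50 at E14.5, at least 3.36-fold (adjusted p = 0.0106). Zp3 had 69.0 and 64.6 at E18.5, against 13.3 and 6.79 at E14.5, at least 2.44-fold (adjusted p = 0.0255). Both rises stood on signals under 100. Without E14.5 replicate 1 the Zp2 call was lost (adjusted p = 0.0519), the Zp3 call was lost without either E14.5 array (largest adjusted p = 0.115), and neither gene could be tested without an E18.5 array. Zp1 averaged 41.4 ± 23.5 at E18.5 and 33.3 ± 14.9 at E14.5, and Gdf9, a growth factor of the oocyte, 84.8 ± 8.81 and 50.1 ± 4.03 (SD, n = 2 each), and neither passed. Ybx2, a protein that stores maternal RNA, rose by 2.36 ± 0.48, a call lost in all left-out fits but that without E14.5 replicate 2 (largest adjusted p = 0.0761).

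**Figure D2:**
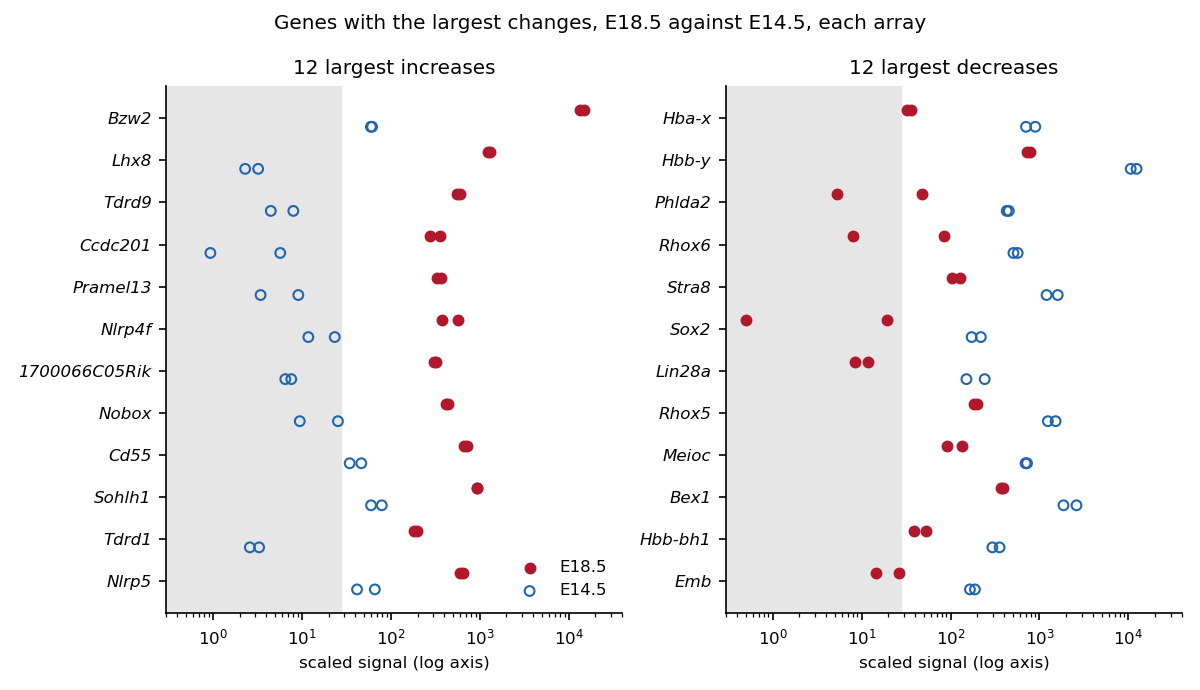
Scaled signal (horizontal, log axis) of the 12 largest increases and 12 largest decreases, each row a gene and each point an array, E18.5 filled and E14.5 open. Grey marks signals up to the 95th percentile of controls with no target on the E14.5 arrays (27.5). Only genes without overlapping stages could be chosen.

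General germ cell markers passed in both directions. Of 32 tested, out of 40 on the list, 11 rose and 3 fell, with a median of 0.36, and 4 to 7 rose in the left-out fits. Of the 32, 4 passed the filter only through the E18.5 arrays, 3 of them risers. With no filter 9 of 33 rose and 2 fell, with a median of 0.29. Tdrd9, a helicase of the piRNA pathway, had 604 and 554 at E18.5, against 8.04 and 4.49 at E14.5, a rise of at least 21.1-fold (adjusted p = 1.06e-05). Tdrd1, a scaffold of the same pathway, had 184 and 195 at E18.5, against 3.32 and 2.61 at E14.5, at least 6.92-fold (adjusted p = 0.00103). Both genes were under the controls on each E14.5 array. Piwil2, a PIWI protein that binds piRNAs, rose by 2.05 ± 0.22 to 745 and 744 at E18.5, against 187 and 151 at E14.5. Mov10l1, the helicase that feeds piRNA precursors to it, rose by 2.03 ± 0.22 to 1037 and 1003 at E18.5, against 241 and 235 at E14.5. These 4 calls held in every left-out fit that tested them, and Tdrd1 was not tested in those without an E18.5 array. Adad2, an RNA-binding protein of germ cells, rose by 1.98 ± 0.24. Gtsf1, Mael, Tdrd5 and Tdrd7, also of the piRNA pathway and named after their values were seen, rose by 0.87 to 1.27, with calls lost in 3 left-out fits for Gtsf1 and Mael and in all 4 for Tdrd5 and Tdrd7.

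Among the 3 that fell were widely used markers. Dazl, an RNA-binding protein of germ cells, had 1218 and 1137 at E18.5, against 2314 and 2538 at E14.5, a change of -1.03 ± 0.26 (adjusted p = 0.0209). Ddx4, the Vasa helicase, had 487 and 612 at E18.5, against 951 and 1081 at E14.5, a change of -0.87 ± 0.19 (adjusted p = 0.0118). The stages did not overlap in either gene, as in every gene called. Dazl lost its call in all 4 left-out fits (largest adjusted p = 0.127), and Ddx4 without E14.5 replicate 2 or E18.5 replicate 1 (largest 0.155). The other that fell was Tex14, an intercellular bridge protein named here after its values were seen, by 0.71 ± 0.21, with its call lost in all 4 left-out fits. Stk31 and Slc25a31, bright germ cell genes, changed by 0.43 ± 0.21 and -0.42 ± 0.18 and did not pass.

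Several of the largest increases belong to none of these groups. Bzw2, a translation regulator with basic leucine zipper and W2 domains, had 15064 and 13541 at E18.5, against 61.7 and 59.8 at E14.5, a change of 7.54 ± 0.20 (adjusted p = 2.30e-10). That was the largest rise among genes measured at both stages, but its other tested probe set gave -0.38 ± 0.29 and did not pass. The 2 probe sets thus disagree by more than their errors. Ccdc201 rose at least 11.4-fold, Pramel13, of a family with many germ cell members, at least 12.8-fold, and 1700066C05Rik at least 11.49-fold, all 3 under the controls at E14.5. Cd55, a surface protein that holds complement in check, had 719 and 674 at E18.5, against 46.7 and 34.6 at E14.5, and 2 other probe sets of it rose too. Genes given by a bound have no order among these. Of the 134 genes past the test that are named by rule, 52 had another tested probe set, and in 26 of these no other passed in the same direction, with 0 passing in the opposite one. Among those 26 are Bzw2, Cntd1, Cdc20, Gng13, Foxl2, Dazl, Tet1, Sall4, Igf2bp1 and Fdft1.

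Genes of meiotic entry and of meiotic cohesin fell more often than they rose. Of 12 genes of meiotic entry and meiotic cohesin tested, out of 16, 5 fell and 1 rose, with a median of -0.74 and 2 or 3 falling in the left-out fits. Stra8, the retinoic acid target that licenses meiosis, had 104 and 126 at E18.5, against 1604 and 1203 at E14.5, a change of -3.42 ± 0.21 (adjusted p = 1.59e-06). Meioc, which steadies meiotic transcripts, had 92.3 and 134 at E18.5, against 698 and 725 at E14.5, a change of -2.51 ± 0.27. Rec8, the kleisin of meiotic cohesin, had 33.8 and 48.2 at E18.5, against 205 and 240 at E14.5, a change of -2.07 ± 0.32. These 3 falls held in every left-out fit that tested them, with no overlap between stages.

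The rest of the list was weaker or moved otherwise. Sgo2a, the protector of cohesin at centromeres, fell by 1.35 ± 0.31 and Stag3, a cohesin subunit named here after its values were seen, by 0.98 ± 0.25, both lost in all 4 left-out fits (largest adjusted p = 0.0844 and 0.135). Zfp541 rose by 1.17 ± 0.27, lost in all left-out fits but that without E18.5 replicate 2. Smc1b, the meiotic form of a cohesin ring subunit, had 1304 and 1318 at E18.5 and 1483 and 1175 at E14.5, with overlapping arrays and a change of -0.01 ± 0.23. Rec8 and Smc1b, partners in one ring, thus gave different changes on these arrays, a difference that was not tested.

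Within the synaptonemal complex, 2 members rose to high levels and most others did not pass. Of 12 tested out of 13, 2 rose and 1 fell, with a median of -0.22. Sycp1, the filament that spans the paired chromosomes, had 2098 and 2196 at E18.5, against 699 and 624 at E14.5, a change of 1.68 ± 0.25 (adjusted p = 0.00149). Syce3, of the central element, had 1335 and 1188 at E18.5, against 351 and 292 at E14.5, a change of 1.92 ± 0.26 (adjusted p = 7.58e-04). Both kept their calls in the 4 left-out fits. Sycp3, of the lateral element laid down before synapsis, was at 2643 and 3002 at E18.5 and already at 2485 and 2571 at E14.5, a change of 0.16 ± 0.22. Syce2, of the central element, changed by -0.22 ± 0.20. Hormad1, which marks chromosome axes that are not yet synapsed, fell by 0.88 ± 0.24, a call lost in all 4 left-out fits (largest adjusted p = 0.201).

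Recombination genes mostly did not pass. Of 22 tested out of 33, 1 rose and 3 fell, with a median of -0.03, beside 6.56% higher and 8.49% lower over all genes. Cntd1, a crossover factor, had 2439 and 2308 at E18.5, against 833 and 836 at E14.5, a change of 1.49 ± 0.27, lost without E18.5 replicate 1 (adjusted p = 0.0597). Mei4, needed to make the breaks that start recombination, averaged 17.3 ± 1.05 at E18.5 and 129 ± 9.13 at E14.5 (SD, n = 2 each), a fall of at least 5.25-fold (adjusted p = 0.00765). Its call was lost without E18.5 replicate 1, and it was tested in only 2 of the 4 left-out fits. Dmc1, the meiotic strand exchange protein, fell by 0.98 ± 0.22 to 121 and 143 at E18.5, against 303 and 249 at E14.5. Terb1, of the complex that anchors telomeres at the nuclear membrane, fell by 0.75 ± 0.20. The Dmc1 call was lost without E14.5 replicate 1 or E18.5 replicate 1 (largest adjusted p = 0.114) and the Terb1 call in all 4 left-out fits. Spo11, which cuts the DNA, had 223 and 185 at E18.5 and 171 and 137 at E14.5, with a change of 0.38 ± 0.27 that did not pass.

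Some genes of pluripotency and of the primordial germ cell fell. Of 26 tested out of 30, 8 fell and 1 rose, with a median of -0.75, and 4 to 7 fell in the left-out fits. Sox2, a core pluripotency factor, had 19.2 and 0.498 at E18.5, against 173 and 219 at E14.5, a fall of at least 7.91-fold (adjusted p = 4.85e-04). Lin28a, the RNA-binding protein that blocks let-7 maturation, had 11.9 and 8.36 at E18.5, against 151 and 242 at E14.5, at least 7.77-fold lower (adjusted p = 4.64e-04). Both were under the controls on each E18.5 array. Sall4 fell by 2.40 ± 0.34, and Phlda2, an imprinted growth gene that the list holds, fell by 3.64 ± 0.43, in each case with 1 E18.5 array under the controls. Dppa5a fell by 1.93 ± 0.22 but was still at 425 and 525 at E18.5, against 1921 and 1764 at E14.5. Pou5f1 (Oct4) had 74.2 and 5.77 at E18.5, against 136 and 107 at E14.5, a change of -1.63 ± 0.49, lost in all left-out fits but that without E18.5 replicate 1. On the log2 scale its 2 E18.5 arrays differed from each other more than the stage means did. Nanog was dim throughout and did not pass. The riser was Trim71, named after its values were seen, by 1.11 ± 0.29, lost in all left-out fits but that without E18.5 replicate 2.

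Among fetal growth regulators 5 fell, of 15 tested out of 19, with 1 riser and a median of -0.51. Hmga2, a chromatin protein of fetal growth, had 316 and 246 at E18.5, against 896 and 1105 at E14.5, a change of -1.78 ± 0.20 (adjusted p = 2.71e-04). Igf2bp1, an RNA-binding protein of fetal tissue, fell by 1.35 ± 0.24, and Mycn by 1.21 ± 0.21, the Mycn call being lost without E18.5 replicate 1 (adjusted p = 0.0648). Lin28a, given above, is also on this list, and Mest, an imprinted gene, fell by 0.84 ± 0.20 (lost in all 4 left-out fits). Igf2, the fetal growth factor, was at 4173 and 4223 at E18.5 and at 3612 and 4324 at E14.5, with overlapping arrays. The X-linked homeobox genes Rhox5 and Rhox6 were among the 12 largest decreases, with Rhox5 at 182 and 197 at E18.5, against 1519 and 1243 at E14.5, and Rhox6 at 84.7 and 7.96 at E18.5, against 570 and 510 at E14.5. Bex1 had 388 and 372 at E18.5, against 1862 and 2606 at E14.5, and Emb, a surface glycoprotein, had 26.6 and 14.6 at E18.5, against 188 and 165 at E14.5.

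Chromatin genes of germ cells fell more often than they rose. Of 19 tested out of 22, 6 fell and 1 rose, with a median of -0.28, and 1 to 4 fell in the left-out fits. The riser was Kdm1b, a histone demethylase needed for maternal imprints, with 736 and 795 at E18.5, against 147 and 185 at E14.5, a change of 2.11 ± 0.21 (adjusted p = 1.12e-04). Tet1, a DNA demethylase, had 51.1 and 46.7 at E18.5, against 132 and 141 at E14.5, a change of -1.23 ± 0.24, and both calls held in the 4 left-out fits. Ezh2, the Polycomb methyltransferase, fell by 1.18 ± 0.23, lost without E14.5 replicate 2 or E18.5 replicate 2 (largest adjusted p = 0.0822). Hells, a chromatin remodeller, fell by 1.02 ± 0.19 and Cbx1 by 0.98 ± 0.24, both lost in all left-out fits but that without E14.5 replicate 1. Dnmt1, the maintenance DNA methyltransferase, changed by -0.28 ± 0.21 and did not pass.

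**Figure D3:**
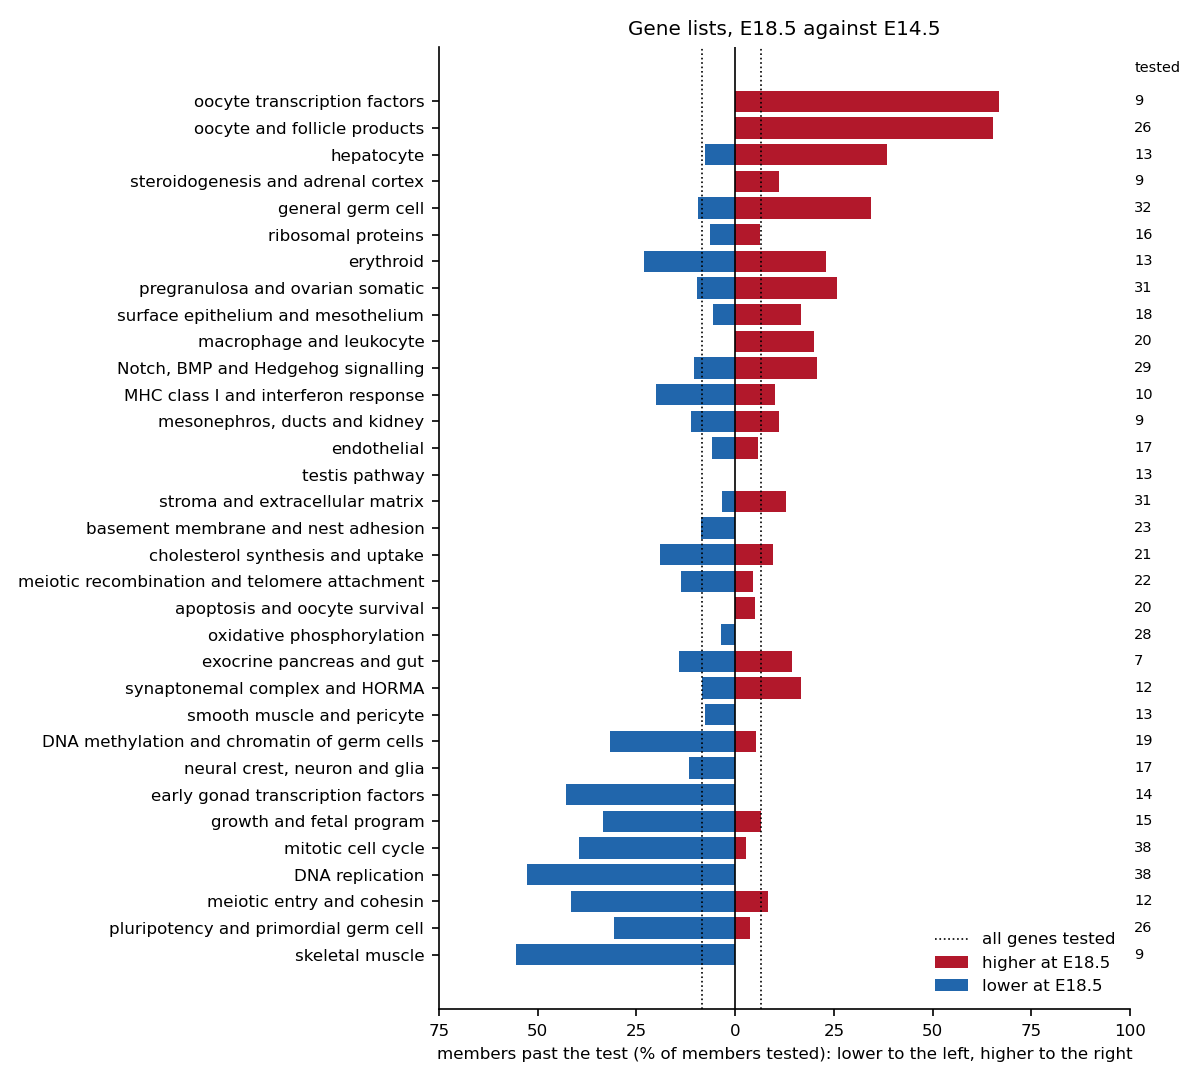
Share of tested members of each gene list that passed the test (horizontal axis, % of members tested), higher at E18.5 in red to the right and lower in blue to the left, with the number tested at the right edge and lists ordered by median change. Dotted lines are the shares over all genes, 6.56% higher and 8.49% lower. The oocyte lists stand furthest to the right, and skeletal muscle and DNA replication furthest to the left.

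Genes of DNA replication and cell division fell in the largest numbers of any list. Of 38 replication genes tested out of 39, 20 fell and 0 rose, with a median of -0.73, and 7 to 12 fell in the left-out fits. Mcm7, of the replicative helicase, had 547 and 607 at E18.5, against 2226 and 2617 at E14.5, a change of -2.04 ± 0.22 (adjusted p = 1.95e-04). Tk1, which makes thymidine nucleotides, had 89.6 and 92.5 at E18.5, against 341 and 439 at E14.5, a change of -1.91 ± 0.23. The primase subunits fell with them, Prim1 by 1.74 ± 0.25 and Prim2 by 1.88 ± 0.25, as did Rrm2, a subunit of ribonucleotide reductase, by 1.75 ± 0.27. All 5 held in the left-out fits. Pcna did not pass, and Mcm5 gave 0.49 ± 0.33 by its brightest probe set but -1.15 ± 0.20 (adjusted p = 0.00359) by another.

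Of 38 mitotic genes tested out of 39, 15 fell and 1 rose, with a median of -0.61, and 5 to 8 fell in the left-out fits. Cdc20, an activator of the anaphase-promoting complex, had 208 and 332 at E18.5, against 1258 and 1432 at E14.5, a change of -2.28 ± 0.31 (adjusted p = 8.02e-04). Mki67, the common marker of dividing cells, had 416 and 380 at E18.5, against 1034 and 1092 at E14.5, a change of -1.38 ± 0.20. Top2a fell by 1.52 ± 0.20 and Anln, of the cleavage furrow, by 1.59 ± 0.21, and these 4 held in the left-out fits. Kif2c, a mitotic kinesin, fell by 1.30 ± 0.27, lost without E14.5 replicate 2 or E18.5 replicate 2. The riser was Prc1, a midzone protein named after its values were seen, by 1.04 ± 0.19, lost in 1 left-out fit. Ccnd2 did not pass by its brightest probe set (-0.08 ± 0.21), while 2 others of its 7 rose, by 1.59 ± 0.31 and 1.03 ± 0.26.

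Somatic genes of the ovary passed in both directions. Of 31 pregranulosa and ovarian somatic genes tested out of 36, 8 rose and 3 fell, with a median of 0.25, but only 1 to 3 rose in the left-out fits. Foxl2, the factor that holds granulosa cells to the female fate, had 467 and 463 at E18.5, against 256 and 218 at E14.5, a change of 0.93 ± 0.19 (adjusted p = 0.00863), lost in all left-out fits but that without E14.5 replicate 1 (largest adjusted p = 0.0855). Gng13, a G protein subunit, had 646 and 643 at E18.5, against 219 and 133 at E14.5, a change of 1.82 ± 0.32 that held in the 4 left-out fits. Nr0b1 (Dax1) rose by 1.08 ± 0.23, lost without E14.5 replicate 2 or E18.5 replicate 1. Wnt4 and Rspo1, the signals of the female pathway, changed by 0.20 ± 0.22 and -0.55 ± 0.20 and did not pass, nor did Kitl, the ligand of Kit, at -0.56 ± 0.19. Fst, an activin antagonist, gave -0.37 ± 0.22 by its brightest probe set and 1.18 ± 0.36 (adjusted p = 0.0458) by another. Of the genes that fell, Bmp2 did so by 0.91 ± 0.20 and Lef1 by 0.91 ± 0.26, with calls lost in 2 and 3 of the left-out fits, and Lgr4, named after its values were seen, by 0.71 ± 0.22, lost in all 4.

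Of 14 transcription factors of the early gonad tested out of 19, 6 fell and 0 rose, with a median of -0.51, and 1 to 3 fell in the left-out fits. Emx2, needed for the gonad and the mesonephric ducts to form, had 181 and 253 at E18.5, against 841 and 871 at E14.5, a change of -1.92 ± 0.22 (adjusted p = 3.50e-04). Lhx9 fell by 1.21 ± 0.27, Tcf21 by 1.09 ± 0.26, Dmrt1 by 1.09 ± 0.28 and Nr2f2 by 0.81 ± 0.20. Emx2 held in the 4 left-out fits, while Tcf21 and Dmrt1 were lost in all of them and Lhx9 and Nr2f2 in all but that without E14.5 replicate 1. Wt1, Gata4 and Nr5a1, the factors shared by the gonads of both sexes, changed by -0.28 ± 0.18, 0.37 ± 0.24 and -0.36 ± 0.25 and did not pass. Of 13 testis genes tested out of 21, 0 passed with limma and 4 had an unadjusted p under 0.05, and their summed scaled signal was 1650 and 1959 at E18.5, against 1469 and 1737 at E14.5.

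Some genes of BMP and Notch signalling rose. Of 29 tested out of 35, 6 rose and 3 fell, with a median of 0.11, and 3 rose in each left-out fit. Id1, an inhibitor of helix-loop-helix factors that BMP signals induce, had 3189 and 3224 at E18.5, against 581 and 674 at E14.5, a change of 2.33 ± 0.19 (adjusted p = 1.85e-05). Hes1, a target of Notch, had 566 and 625 at E18.5, against 147 and 167 at E14.5, a change of 1.82 ± 0.20 (adjusted p = 1.95e-04). Jag2, a Notch ligand, had 267 and 263 at E18.5, against 86.9 and 94.6 at E14.5, a change of 1.40 ± 0.24. All 3 held in the 4 left-out fits. Gli2, an effector of Hedgehog signals, fell by 1.36 ± 0.25, lost without E14.5 replicate 2 (adjusted p = 0.0501), and Smad6, an inhibitor of BMP signals, by 1.08 ± 0.26, lost in 3 left-out fits. Ptch1 and Notch2 did not pass.

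The surface and the stroma gave single large changes. Krt19, a keratin of the ovarian surface epithelium, had 1201 and 1411 at E18.5, against 268 and 320 at E14.5, a change of 2.09 ± 0.24 (adjusted p = 2.89e-04), while Krt18 and Upk3b of the same layer did not pass. Of 18 surface genes tested, 3 rose and 1 fell. Upk1b and Gpm6a rose by 1.09 ± 0.30 and 1.28 ± 0.34 and Aldh1a2, a retinoic acid synthase, fell by 0.78 ± 0.21, with calls lost in at least 3 of the left-out fits. Eln, the elastin of stretchable matrix, had 650 and 717 at E18.5, against 177 and 208 at E14.5, a change of 1.75 ± 0.22 (adjusted p = 4.84e-04). Of 31 stromal matrix genes tested out of 32, 4 rose and 1 fell, with a median of 0.02, beside 6.56% higher and 8.49% lower over all genes. Col1a1 rose by 0.94 ± 0.22 and Sparc by 0.73 ± 0.20, Dpt rose on dim signals by 1.75 ± 0.46, and Pdgfra fell by 0.81 ± 0.23. Of the stromal calls only that of Eln held in the 4 left-out fits. Col1a2, Col3a1 and Dcn, the brightest matrix genes that did not pass, changed by 0.04 ± 0.24, 0.49 ± 0.23 and 0.05 ± 0.21. In the list of basement membrane and nest adhesion, 2 of 23 fell and 0 rose, namely Cdh11 by 1.52 ± 0.32 and the gap junction gene Gja1 by 0.99 ± 0.23, both lost in all 4 left-out fits.

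Markers of blood moved with the stage. Embryonic globins were among the 12 largest decreases. Hba-x had 36.0 and 32.6 at E18.5, against 706 and 898 at E14.5, a change of -4.01 ± 0.21 (adjusted p = 3.73e-07). Hbb-y had 722 and 782 at E18.5, against 10609 and 12333 at E14.5, a change of -3.90 ± 0.28, and Hbb-bh1 had 53.4 and 38.8, against 356 and 296, a change of -2.47 ± 0.25. The adult-type globin Hbb-b2 went the other way, with 871 and 908 at E18.5, against 234 and 277 at E14.5, a change of 1.74 ± 0.25. Gata1, the erythroid factor, rose by 1.44 ± 0.26, lost without E18.5 replicate 1 (adjusted p = 0.0588). In all, 3 of 13 erythroid genes tested rose and 3 fell. The third riser, Alas2, is named after its values were seen, and its call was lost in all 4 left-out fits. The summed erythroid signal was 3783 and 4009 at E18.5, against 13794 and 15777 at E14.5. Hbb-y alone made 722 and 782 of these sums at E18.5, against 10609 and 12333 at E14.5, so the fall of the sum is mostly that of 1 gene. The median change of the 13 genes was 0.25. Hba-a1 did not pass the filter and was not tested.

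Markers of liver and muscle moved too, and their part in the other results was not tested. Of 13 hepatocyte genes tested out of 20, 5 rose and 1 fell, with a median of 1.03, and their summed signal was 4266 and 4576 at E18.5, against 1606 and 3874 at E14.5, with the E14.5 arrays far apart. Of the 13, 5 passed the filter only through the E18.5 arrays, and with no filter 4 of 18 rose. Alb had 1994 and 2259 at E18.5, against 243 and 583 at E14.5, a change of 2.44 ± 0.38 (adjusted p = 0.00171). Ahsg rose by 2.67 ± 0.35 and Apoa1 by 1.91 ± 0.33, and these 3 held in the 4 left-out fits. Fgb rose at least 5.01-fold (adjusted p = 0.00715) and Fgg by 1.45 ± 0.39, lost in 1 and 3 left-out fits. Afp, named after its values were seen, fell to 585 and 615 at E18.5, against 866 and 2295 at E14.5, lost in 3 left-out fits, and Ttr did not pass. Of 9 skeletal muscle genes tested out of 15, 5 fell and 0 rose, and their summed signal was 432 and 534 at E18.5, against 1107 and 1329 at E14.5. Of the 9, 3 passed the filter only through the E14.5 arrays, and with no filter 3 of 15 fell. Actc1 fell by 2.11 ± 0.32 and Myh3, the embryonic myosin, at least 5.60-fold (adjusted p = 0.00337), and these 2 held in every left-out fit that tested them. Acta1 fell by 1.80 ± 0.47, Mylpf by 1.32 ± 0.29 and Tnnt1 by 1.13 ± 0.29, each lost in at least 3 left-out fits.

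Leukocyte and other neighbouring markers changed in a few genes, to be read beside 6.56% higher and 8.49% lower over all genes. Of 20 macrophage and leukocyte genes tested out of 25, 4 rose and 0 fell, with summed signals of 2533 and 2602 at E18.5, against 1622 and 1825 at E14.5. S100a8 had 500 and 579 at E18.5, against 83.0 and 232 at E14.5, and S100a9 had 350 and 395, against 73.4 and 121, and Camp rose by 1.93 ± 0.39, all 3 of them genes of granulocytes. Lcp1 rose by 1.08 ± 0.33, lost in all 4 left-out fits, while the macrophage receptor Csf1r did not pass. Ptprc, the pan-leukocyte marker, did not pass the filter. Of 17 endothelial genes tested out of 22, Pecam1 rose by 1.16 ± 0.30 and Aplnr fell by 1.49 ± 0.28. Of 7 pancreas and gut genes tested out of 18, Vil1 rose at least 3.37-fold and Cpa1 fell at least 3.83-fold (adjusted p = 0.0108 and 5.35e-04). Vil1 passed the filter only through the E18.5 arrays and could not be tested without either of them. Of 9 kidney and duct genes tested out of 23, Slc34a1 rose by 1.59 ± 0.39 and Emx2, given above, fell, and Pax8 did not pass. Of 17 neural genes tested out of 21, Elavl3 and Fabp7 fell and 0 rose. Of 9 steroidogenic genes tested out of 22, Nr0b1 alone rose, and Star, Cyp11a1 and Hsd3b1 did not pass. Of the calls in this paragraph, those of S100a8, S100a9, Cpa1 and Emx2 held in every left-out fit that tested them, and those of Camp, Pecam1, Aplnr, Vil1, Slc34a1, Elavl3 and Fabp7 were lost in at least 1.

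Among the metabolic and housekeeping lists, cholesterol synthesis held most of the calls. Over all genes 6.56% were higher and 8.49% lower. Of 21 genes of cholesterol synthesis tested out of 25, 4 fell and 2 rose. Idi1 fell by 1.33 ± 0.20, Fdps by 1.17 ± 0.20 and Sqle by 1.10 ± 0.21, while Fdft1, the enzyme between Fdps and Sqle, rose by 1.22 ± 0.26, as did Insig1, the brake on the pathway, by 1.15 ± 0.23. Only the Idi1 call held in the 4 left-out fits. Fdft1 was lost in all 4 (largest adjusted p = 0.0775), and none of its 3 other tested probe sets passed. The other that fell was Msmo1, named after its values were seen. Of 16 ribosomal protein genes tested, Rps3 rose by 1.10 ± 0.30 and Rpl37 fell by 1.05 ± 0.23. With quantile normalization the Rps3 change was 0.35 and the median of the 16 turned to -0.16, against 0.26, with 0 higher and 2 lower. Of 28 genes of oxidative phosphorylation tested, Cox5a fell by 0.93 ± 0.28, and 0 rose, with calls lost in 3 left-out fits for Rpl37 and in all 4 for Rps3 and Cox5a. Of 20 genes of apoptosis and oocyte survival tested out of 26, only Trp63, the p53 relative that guards the oocyte genome, passed, with 135 and 132 at E18.5, against 36.8 and 35.5 at E14.5, a change of 1.52 ± 0.33 (adjusted p = 0.0114). That call was lost without either E14.5 array, and Trp63 could not be tested without an E18.5 array.

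The arrays at E16.5 were set against these 2 stages. The mean of 716 of the 859 risers at E16.5 lay between those of E14.5 and E18.5, and of 952 of the 1112 genes that fell. Among all 13104 genes it was 6086. Called genes have a wider gap between the end stages, so part of their higher count follows from how they were chosen. By E16.5 the median riser had covered 53.8% of its change and the median of the genes that fell 65.0%. At E16.5 378 risers (44.0%) and 797 of the genes that fell (71.7%) were below the midpoint of the end stages on the log2 scale, against 54.1% of all genes. A departure of E16.5 from that midpoint passed limma's test for 44 genes (0.336%), 5 higher (0.0382%) and 39 lower (0.298%), of which 16 were risers and 9 had fallen. That count is sensitive, with 62 probe sets (0.231%), 7 higher (0.0260%) and 55 lower (0.205%), becoming 7 without E16.5 replicate 2, 20 without E16.5 replicate 1, 17 without E18.5 replicate 1, 30 without E18.5 replicate 2, 27 without E14.5 replicate 2 and 9 with the wash module as a block, and growing to 121 and 123 without an E11.5 array.

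Dppa3 made the largest departure. Its scaled signals were 820 and 718 at E14.5, 96.6 and 69.6 at E16.5 and 3417 and 3223 at E18.5, so E16.5 lay 4.04 ± 0.20 below the midpoint (adjusted p = 7.99e-07). Dppa5a had 1921 and 1764 at E14.5, 170 and 224 at E16.5 and 425 and 525 at E18.5, 2.17 ± 0.19 below (adjusted p = 3.65e-04). Both germ cell genes were lowest at the middle stage, and their departures passed under 21 other settings, the fit of 10 arrays apart. Kit was lowest there too, at 80.3 and 46.3, with a departure of -1.69 (adjusted p = 0.00596) that was lost without E16.5 replicate 2 (adjusted p = 0.103). Kdm1b, at 121 and 106 at E16.5, departed by -1.54 (adjusted p = 0.00312), lost without E16.5 replicate 2 and with the wash module as a block. Esrp1, a splicing factor of epithelia and germ cells, averaged 86.6 ± 8.60, 35.2 ± 37.6 and 576 ± 22.4 at E14.5, E16.5 and E18.5 (SD, n = 2 each), a departure lost with no filter, with no intensity trend and with the wash module as a block.

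At E16.5 these oocyte genes were far below their E18.5 signals. Nobox was under the controls at E16.5, with 11.8 and 5.52, and Nlrp5 was at 52.4 and 48.4, each gene with arrays that overlapped those of E14.5. Both were below the midpoint (adjusted p = 0.0109 and 0.00842), Nlrp5 by -1.67. Sohlh1 averaged 99.96 ± 0.049 at E16.5 (SD, n = 2) and departed by -1.30 (adjusted p = 0.0100). Lhx8 was at 66.4 and 59.0 at E16.5, above both E14.5 arrays, and its departure did not pass (adjusted p = 0.145), while differences between these genes were not tested. Nobox, Nlrp4f, Nlrp5 and Sohlh1 lost their departures without either E16.5 array and with the wash module as a block, Nlrp5 and Sohlh1 also without either E18.5 array, and Nlrp4f also without E14.5 replicate 2. Nobox, Nlrp4f and Nlrp5 lost them with no filter, Nobox and Nlrp4f with 1 added, and Sohlh1 with no intensity trend. Stra8 was at 266 and 256 at E16.5, below both E14.5 arrays and above both E18.5 arrays, and Rec8 was at 39.4 and 46.5, within the E18.5 values. Sycp1, at 1637 and 1681, and Syce3, at 926 and 1557, were already above both E14.5 arrays. Dmc1 was highest at the middle stage, with 526 and 503, a departure of 1.36 ± 0.19 (adjusted p = 0.00896) that was lost without E16.5 replicate 1, E16.5 replicate 2 or E18.5 replicate 1, with no intensity trend and with the wash module as a block (largest adjusted p = 0.185). Mfap4, a matrix protein, was at 18.3 and 28.4 at E14.5, 460 and 140 at E16.5 and 8.50 and 34.2 at E18.5, and Plk2 and H2-D1 were also higher at E16.5 than at either end, calls lost in at least 3 of the fits without 1 array.

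**Figure D4:**
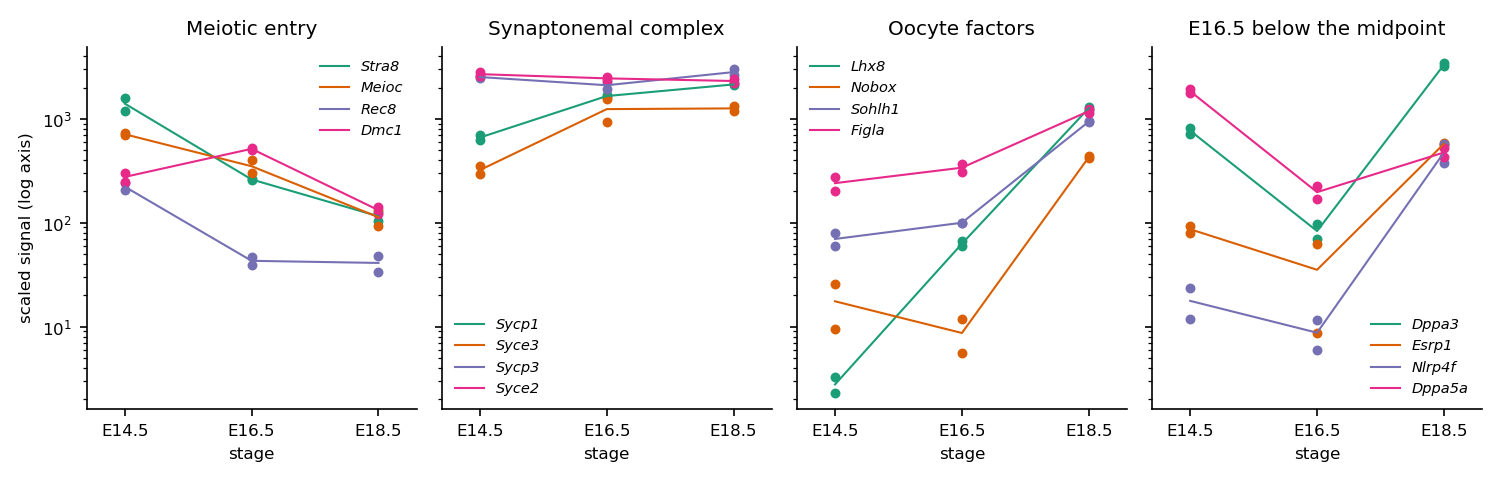
Scaled signal (vertical, log axis) at E14.5, E16.5 and E18.5 (horizontal axis, stage) of 16 genes in 4 panels, with points for single arrays and lines through the means of 2 arrays. Stra8 and Meioc are lower at each later stage, Sycp1 and Syce3 are higher at E16.5 than at E14.5, Nobox is high at E18.5 alone, and Dppa3 and Dppa5a are lowest at E16.5.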

How the data were processed

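The authors deposited 1 table of linear intensity values, 1 signal per probe set and array, on a 45101 probe set mouse array, and per the labels RNA was prepared with Trizol and the single cycle biotin protocol. The deposited signals had been scaled to a common trimmed mean, and the sources used here do not name their software. After removal of 64 control probe sets, the arrays were brought to the same 75th percentile, 142. Symbols were read from the array's probe annotation, with 34945 probe sets having 1 symbol, 932 several and 9160 none, and 34741 matched a current gene table by identifier. The filter asked for 2 of 8 arrays with a signal no lower than the median over all arrays, and left 26890 probe sets and 13104 genes.

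The model was fitted in limma 3.58.1 (R 4.3.3) on log2(signal + 16), using lmFit with a mean for each stage, eBayes(trend = TRUE) and Benjamini-Hochberg adjustment. E16.5 was tested against the midpoint of E14.5 and E18.5 in the same fit. Python 3.11.15 with pandas 2.3.3, numpy 2.4.6 and matplotlib 3.10.9 served for tables and plots. On simulated data for E18.5 against E14.5, with 200 of 26890 probe sets changed, 34% of changes of 2-fold and 88.6% of 4-fold were recovered, and 6.39% of calls were false. In the data far more probe sets were called (3548), and the simulated spread was independent between probe sets. These rates therefore need not hold for the comparison itself. The labels call the preparations independent, and p-values measure only the spread between these arrays. Alternatives changed the arrays fitted, the scaling, the value added, the filter, the trend, array weights, and replicate or wash module as a block. The settings files were read for hybridisation date and module only.

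The comparison, the 33 gene lists, the exclusion of E12.5 and the rule for named genes were chosen with earlier results of these data known. The rule names the 12 largest increases and decreases among genes past the test with no overlap and a mean of at least 100, up to 5 members past the test and 3 brightest members not past it per list, a set of core genes, and the 5 largest departures of E16.5 each way. Some genes are on more than 1 list, and members that did not pass the filter on low signals were not tested.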

Additional observations from a re-analysis of the deposited data

How the results depend on the processing

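With all 10 arrays, 10 probe sets and 8 genes passed for E18.5 against E14.5 and 0 probe sets for the midpoint (501 at an unadjusted p under 0.05), and without the intensity trend 2309, 1219 and 29 did, against 3548, 1971 and 62. With E12.5 replicate 1 kept and replicate 2 left out, 3511, 1962 and 64 did. Leaving out 1 array of any stage gave 716 to 3992 probe sets, 400 to 2239 genes and 7 to 123 midpoint probe sets, with the lone array of a stage assumed to vary like the others. The midpoint count was also 127 with the 6 arrays of E14.5, E16.5 and E18.5 alone, 113 with quantile normalization, 95 with 64 added, 20 with no filter and 9 with the wash module as a block. The cause was not tested. The replicate block gave 3289 probe sets, 1821 genes and 63 midpoint probe sets. Replicate numbers did not pair the arrays, since deviations from stage means correlated at -0.072 to 0.036 between stages. Of the calls that passed, 44.1% of probe sets were higher, 54.4% without E14.5 replicate 2 (730 higher, 613 lower) and 34.1% without E18.5 replicate 2.

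Of 134 named genes past the test, 0 reversed under any alternative that tested them. The fit of 10 arrays and the left-out ones apart, 100 kept their call in all fits that tested them. Fewer kept it in the left-out fits too. With the stricter filter 115 of the 134 kept their call and 0 lost it, the rest not being tested. The wash module block, the 6-array fit and array weights for the midpoint were chosen after the data were seen. Signals under the controls with no target give bounds only.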

Other observations

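A few genes of antigen presentation and interferon response passed, in both directions. Of 10 tested out of 21 on the list, 1 rose and 2 fell. H2-K1, a class I heavy chain, had 253 and 237 at E18.5, against 754 and 749 at E14.5, a change of -1.56 ± 0.28 (adjusted p = 0.00412) that held when any 1 of the 4 arrays was left out. H2-D1, its neighbour in the family, averaged 396 ± 2.10 at E18.5 and 445 ± 23.9 at E14.5 (SD, n = 2 each) and did not pass, and probes of such close relatives may share signal. Ifit3, an interferon-induced gene, rose at least 2.59-fold (adjusted p = 0.0107), lost without E14.5 replicate 1 or E18.5 replicate 2, and Ifitm3, which also marks early germ cells, fell by 1.00 ± 0.23, lost in all left-out fits but that without E14.5 replicate 1. In the smooth muscle list Acta2 fell by 0.76 ± 0.22, lost in all 4 left-out fits, and Tagln did not pass.

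A larger share of genes on the X chromosome fell than on any autosome. Of 444 X-linked genes tested, 26 rose (5.86%) and 76 fell (17.1%), against 6.19% to 10.7% falling on each of the 19 autosomes. The median change was -0.20 for X, against -0.11 to 0.06 for the autosomes. Without rescaling it was -0.16, with the lowest autosome at -0.06, with quantile normalization it was -0.19, with the lowest at -0.09, and it was -0.11 against -0.09 when a gene was read by the mean of its probe sets. Rhox6, Rhox5 and Bex1 were the X-linked genes that fell most. The pattern was noted after the values were seen and was not tested, and neighbouring genes are not independent.

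Ap1m1, a subunit of an adaptor that sorts membrane cargo, rose by 0.96 ± 0.19 between the end stages, with 904 and 1087 at E18.5, against 473 and 530 at E14.5, and was higher still at E16.5, with 1380 and 1361. Its other tested probe set did not pass. The call between the end stages was lost without E14.5 replicate 1 or E18.5 replicate 2. The departure of E16.5 from the midpoint passed in the main fit but was lost in 10 of 21 other settings. Among these were 6 of 8 fits without 1 array and the wash module as a block.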
